A study of Mus musculus with 6 samples.

Results

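The 10 genes described here encode proteases of the pericellular matrix, a receptor for one of them, and their tissue inhibitors: *Mmp3*, *Mmp9*, *Mmp10*, *Mmp13*, *Mmp14*, *Mmp1b*, *Plau*, *Plaur*, *Timp1* and *Timp3*. They were chosen by name, as genes known from the migrating epidermal edge of wounds, and each was represented by 1 probe, so that 10 of the 55681 probes of the array are described. Earlier results of these data were known when the genes were chosen. Expression was measured in cultured mouse keratinocytes, the cells that build the epidermis, on 2-colour arrays that carried knockout and wild-type RNA in the same hybridisation. There were 2 arrays, labelled as biological replicates, for each of 3 genotypes. In Sox4 cKO cells *Sox4* was deleted, in Sox11 cKO cells *Sox11*, and in Sox4/11 dcKO cells (dcKO below) both of these SoxC transcription factor genes. Per the methods, Krt14-Cre, which is active in the basal layer of epithelia, deleted the alleles Sox4 fl/fl and Sox11 fl/fl. The strain label of all cells was 129SvEx:C57BL/6, and the methods name FVB/N as the background of the Cre line. The methods also list Sox12-/- in the floxed parent line, and whether any of these cells carried that allele is not given in the sources used here. All cells came from newborn skin, were first expanded on J2 mouse fibroblasts and were then passaged without them. No label tells if the 6 wild-type RNAs came from separate cultures, so p-values measure the spread between these arrays, which may in part be technical.

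Matrix metalloproteinases (MMPs) are zinc enzymes that are made as inactive proenzymes and cleave collagens, fibronectin, laminins and other matrix proteins once the prodomain has been removed. Urokinase, the product of *Plau*, binds its receptor on the cell surface, the product of *Plaur*, and there turns plasminogen into plasmin, which digests fibrin and can activate several proMMPs. Tissue inhibitors of metalloproteinases (TIMPs) bind the active site of MMPs and block it. In wounded skin, keratinocytes at the leading edge switch on several of these genes while they crawl between the clot and the wound bed, and collagenase, stromelysin and urokinase receptor genes are textbook targets of AP-1, the dimer of Fos and Jun family proteins.

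The stretches before the transcription start are shown for the 5 genes with a match to the AP-1 motif TGANTCA, because 2 of them, *Mmp3* and *Plaur*, had the lowest fitted values in dcKO cells. The RefSeq promoter table (build GRCm38.p6) held 8 of the 10 genes and had no entry for *Plau* and *Mmp9*. Each line gives the last 120 bases before the start on the strand of the gene, with the motif in capitals.
*Mmp3* (chr9:7445702-7445821, plus strand): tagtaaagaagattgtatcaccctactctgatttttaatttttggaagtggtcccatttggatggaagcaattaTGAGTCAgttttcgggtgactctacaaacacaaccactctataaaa
*Mmp10* (chr9:7502222-7502341, plus strand): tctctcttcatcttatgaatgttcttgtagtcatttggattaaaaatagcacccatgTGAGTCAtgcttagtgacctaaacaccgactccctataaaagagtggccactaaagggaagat
*Mmp1b* (chr9:7388027-7388146, minus strand): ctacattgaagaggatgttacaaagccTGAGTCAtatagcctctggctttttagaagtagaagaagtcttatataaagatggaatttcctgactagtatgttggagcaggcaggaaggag
*Mmp13* (chr9:7272394-7272513, plus strand): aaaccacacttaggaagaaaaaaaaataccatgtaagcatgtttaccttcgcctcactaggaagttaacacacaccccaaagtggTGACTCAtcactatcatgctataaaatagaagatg
*Plaur* (chr7:24462363-24462482, plus strand): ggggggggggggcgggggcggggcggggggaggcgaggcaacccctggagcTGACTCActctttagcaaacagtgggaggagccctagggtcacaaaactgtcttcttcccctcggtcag
The motif is its own reverse complement, so both strands were searched at once. It was found within 250 bases before the start in 5 of the 8 genes and in 6.75% of all 32851 promoters of the table. The match began 35 bases before the start in *Mmp13*, 46 in *Mmp3*, 63 in *Mmp10*, 69 in *Plaur* and 93 in *Mmp1b*. The Sox-type motif AACAANG, searched on both strands, was found in 1 of the 8 genes, *Timp3*, 177 bases before the start, and in 12.1% of all promoters. A match describes the letters of the window and shows no binding. The 10 genes were chosen by name from families that hold textbook AP-1 targets, so the AP-1 share does not test for an excess. *Mmp13*, *Mmp1b*, *Mmp3* and *Mmp10* lie in a run of 10 *Mmp* genes on chromosome 9 in the order of the RefSeq gene table. Their matches can therefore not be taken as independent.

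The deleted genes were lower where the labels say so. The log2 fold change of *Sox4* was -2.52 both in Sox4 cKO and in dcKO cells (limma, adjusted p = 0.00399 and 0.00106). That of *Sox11* was -2.98 in Sox11 cKO and -3.43 in dcKO cells (limma, adjusted p = 0.0414 and 0.00662), and its dimmer second probe missed the threshold in Sox11 cKO cells (-2.78, adjusted p = 0.0945). The *Sox11* call in Sox11 cKO cells was lost under 9 of 15 alternatives, with adjusted p of 0.0972 without the replicate block and 0.0939 without either dcKO array, and the value ran from -3.94 to -2.02 as single arrays were left out, below 0 in each. In dcKO cells it was lost under 4, among them the fits without dcKO replicate 1 or replicate 2 (adjusted p = 0.137 and 0.149). All 8 keratinocyte markers were well above background in all 12 channels. Of 10 fibroblast markers, which could report feeder cells, 6 were above background in no channel, among them *Col1a1*, *Col3a1* and *Pdgfrb*. *Vim* was called lower in Sox4 cKO cells (log2 fold change -2.27, limma, adjusted p = 0.0342). The wild-type log2 signal of *Vim* was 8.43 and 8.15 on the Sox4 cKO arrays and between 4.98 and 5.41 on the other 4, and the call was lost without either Sox4 cKO array (adjusted p = 0.128 and 0.366), without either dcKO array (adjusted p = 0.0572), without the replicate block (0.0534) and under 9 of 15 alternatives in all. The summed log2 signal of the fibroblast list was 8.33 to 8.66 in Sox4 cKO channels, against 9.17 to 9.31 in their wild-type channels, and 8.24 to 8.48 in all channels of the Sox11 cKO and dcKO arrays. Its part in the values below was not tested.

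No single protease or inhibitor gene passed the test in any genotype, and *Mmp3*, *Mmp14*, *Mmp1b*, *Plaur* and *Timp1* lay below wild type on both dcKO arrays. None of the 10 genes was called in any genotype or in any difference between genotypes, a call being an adjusted p below 0.05 (Benjamini-Hochberg) and an absolute log2 fold change above 1.5 in limma's test across all probes. In dcKO cells 7 of the 10 genes were lower on both arrays and 0 were higher on both, beside 28.2% and 27.3% of all probes. Of these 7, 5 had at least 1 channel well above background on each dcKO array and 3 (*Mmp14*, *Plaur* and *Timp1*) had all 4, whereas *Mmp9* was at background in all 4 channels and *Mmp13* in both channels of dcKO replicate 2, where a sign is not a measured direction. In Sox4 cKO cells 1 gene was lower on both arrays and 5 were higher, beside 24.6% and 24.2% of all probes. In Sox11 cKO cells 0 were lower on both and 5 were higher, beside 22.2% and 22.2%. These counts describe genes chosen with earlier results of the data known, and do not test them as a set. The median log2 fold change of the 10 genes was 0.07 in Sox4 cKO, 0.23 in Sox11 cKO and -0.36 in dcKO cells, against medians over all probes of 0.0016, -0.0017 and -0.0042. The shares of all probes called were 0.14% in Sox4 cKO, 0.0862% in Sox11 cKO and 0.756% in dcKO cells, and for the differences 0.562% (dcKO minus Sox4 cKO), 0.449% (dcKO minus Sox11 cKO) and 0.0108% (Sox4 cKO minus Sox11 cKO).

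At an unadjusted p below 0.05 in limma's test, 0 of the 10 genes passed in Sox4 cKO, 1 (*Mmp9*) in Sox11 cKO and 4 (*Mmp3*, *Mmp14*, *Mmp1b* and *Plaur*) in dcKO cells, beside 7.4%, 6.85% and 13% of all probes. For the differences, 5 passed in dcKO minus Sox4 cKO, 4 in dcKO minus Sox11 cKO and 0 in Sox4 cKO minus Sox11 cKO, beside 12.1%, 10.3% and 6.35%. These counts are given since no gene passed the adjusted threshold, and the 10 genes are not independent of each other. The genes were also chosen with earlier results known, so the counts do not test them as a set. In these bulk RNAs a smaller share of expressing cells cannot be told apart from less RNA per cell.

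**Figure D1:**
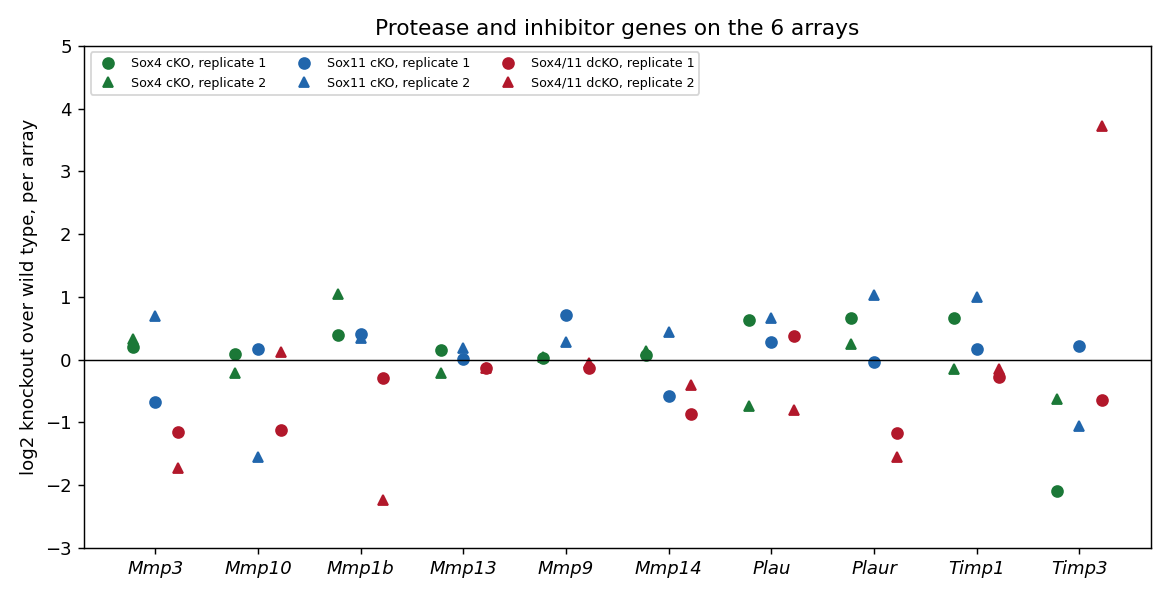
The log2 ratio of knockout over wild type (y axis) of the 10 genes on each of the 6 arrays, with circles for replicate 1, triangles for replicate 2 and colours for the genotype. Both dcKO points lie below 0 for 7 genes, of which *Mmp9* and *Mmp13* were at background on at least 1 dcKO array, and *Mmp3* and *Plaur* lie below -1 on both arrays, while the 2 dcKO points of *Timp3* lie on opposite sides of 0.

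*Mmp3* encodes stromelysin-1, a broad matrix protease that also activates other proMMPs. Its log2 ratios of knockout over wild type were 0.20 and 0.33 in Sox4 cKO cells, -0.67 and 0.70 in Sox11 cKO cells and -1.16 and -1.73 in dcKO cells. The dcKO values were the lowest of the 6. On both Sox4 cKO arrays and on Sox11 cKO replicate 2 the ratios were between background signals. The share of all probes with such an order was not counted, here or for *Plaur* and *Mmp1b* below. The fitted value in dcKO cells was -1.44 ± 0.40 (SD, n = 2; 95% interval -2.13 to -0.76), with a limma adjusted p of 0.0585. In Sox4 cKO cells it was 0.26 ± 0.09 (SD, n = 2; limma adjusted p = 0.904), and in Sox11 cKO cells, where the arrays had opposite signs, 0.01 ± 0.97 (SD, n = 2; adjusted p = 1). The gene was well above background in 5 of 12 channels: both channels of Sox11 cKO replicate 1 and of dcKO replicate 1, and the wild-type channel of dcKO replicate 2. The ratio of dcKO replicate 2 therefore sets a measured wild-type log2 signal of 6.27 against a knockout signal of 4.54 that was not well above background. On dcKO replicate 1 both signals were measured, 9.24 in wild-type and 8.07 in knockout cells.

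*Plaur* was the other gene with both dcKO ratios below -1. Its log2 ratios were 0.67 and 0.25 in Sox4 cKO, -0.05 and 1.03 in Sox11 cKO and -1.17 and -1.55 in dcKO cells, so that the dcKO arrays again lay below all the others. The gene was well above background in all 12 channels, with wild-type log2 signals of 12.02 and 11.48 and knockout signals of 10.86 and 9.93 on the dcKO arrays. The fitted dcKO value was -1.36 ± 0.27 (SD, n = 2; 95% interval -1.97 to -0.74), with a limma adjusted p of 0.052. In Sox4 cKO and Sox11 cKO cells it was 0.46 ± 0.29 and 0.49 ± 0.76 (SD over 2 arrays each; limma adjusted p = 0.772 and 0.836). The difference of dcKO from Sox4 cKO cells was -1.82 (95% interval -2.69 to -0.94; limma adjusted p = 0.0926) and that from Sox11 cKO cells -1.85 (-2.72 to -0.98; adjusted p = 0.103). For *Mmp3* the same differences were -1.71 (-2.67 to -0.74; limma adjusted p = 0.139) and -1.46 (-2.42 to -0.49; adjusted p = 0.23), but no channel of the Sox4 cKO arrays measured the gene, so that the first is set against a ratio of background signals.

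For both genes the side of the threshold depended on which arrays entered the fit. A Sox11 cKO array left alone adds nothing to the estimate of the spread. Leaving out either of the Sox11 cKO arrays therefore gave the same result for dcKO and Sox4 cKO cells, and is not a separate check. With either Sox11 cKO array left out, the dcKO values stayed at -1.36 for *Plaur* and -1.44 for *Mmp3*, and their limma adjusted p fell to 0.000631 and 0.000869, while neither reached the required fold change. In the same fits 4 genes were called in dcKO minus Sox4 cKO, *Plaur* (limma adjusted p = 0.00153), *Mmp3* (0.00413), *Timp3* (0.0116) and *Mmp1b* (0.0456). *Timp3* was also called higher in dcKO over wild type in those fits (adjusted p = 0.0347), although its 2 dcKO arrays have opposite signs. Without Sox11 cKO replicate 1, 4 genes passed in dcKO minus Sox11 cKO (*Plaur*, *Mmp3*, *Timp3* and *Plau*), and *Mmp10* was called lower in Sox11 cKO cells from the array that remained (-1.80, limma adjusted p = 0.0349). In that fit *Plau* and *Plaur* in Sox11 cKO cells were 1.30 and 1.23 with adjusted p of 0.0246 and 0.031, below the fold required. With median centring in place of loess, *Plaur* (-1.89), *Mmp3* (-1.69) and *Mmp1b* (-1.65) were called lower in dcKO cells, with limma adjusted p of 0.00511, 0.00738 and 0.0279.

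*Mmp1b* is 1 of a pair of mouse paralogs of the interstitial collagenase gene *MMP1*. The other, *Mmp1a*, has a probe of its own, and cross-hybridisation between the pair was not tested. The log2 ratios of *Mmp1b* were 0.39 and 1.04 in Sox4 cKO, 0.40 and 0.34 in Sox11 cKO and -0.30 and -2.24 in dcKO cells. All 4 single-knockout ratios were above 0 and both dcKO ratios were below it. The fitted dcKO value was -1.27 ± 1.38 (SD, n = 2; 95% interval -2.15 to -0.39; limma adjusted p = 0.176), with the 2 arrays far apart. The knockout channel of dcKO replicate 2 (log2 signal 5.30) was not well above background, so that the -2.24 and the values that use it are set against a background signal. Without dcKO replicate 2 the fitted value was -0.15, and without dcKO replicate 1 it was -2.39. The difference of dcKO from Sox4 cKO cells was -1.99 (95% interval -3.23 to -0.74; limma adjusted p = 0.179) and that from Sox11 cKO cells -1.64 (-2.89 to -0.39; adjusted p = 0.309). In Sox4 cKO cells the knockout channels were well above background on both arrays and the wild-type channels on neither, with mean log2 signals of 5.60 in knockout and 4.88 in wild-type cells. The fitted Sox4 cKO value was 0.72, with a 95% interval of -0.16 to 1.60 that includes 0 (limma adjusted p = 0.747). No lower bound on the fold is given. The probe of *Mmp1a* was well above background in 1 channel, the wild-type one of dcKO replicate 1.

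*Mmp10* (stromelysin-2), which is classically made by keratinocytes at the wound margin, gave log2 ratios of 0.09 and -0.21 in Sox4 cKO, 0.16 and -1.56 in Sox11 cKO and -1.13 and 0.13 in dcKO cells. The arrays of each genotype disagreed in sign, and limma's adjusted p was between 0.743 and 0.988. No Sox4 cKO channel and neither channel of dcKO replicate 2 was well above background, where a sign is not a measured direction. *Mmp10* was measured in both channels on the Sox11 cKO arrays, which had opposite signs, and on dcKO replicate 1 (-1.13). *Mmp13*, the other collagenase of the set, was well above background on 1 array, dcKO replicate 1, where its log2 signal was 6.23 in wild-type and 6.10 in knockout cells. Its ratios lay between -0.21 and 0.19 on all 6 arrays, most of them between channels at background, where a ratio says little about the transcript. *Mmp9*, gelatinase B, was well above background in 1 channel only, the knockout channel of Sox11 cKO replicate 1. Its ratios there and on Sox11 cKO replicate 2 were 0.71 and 0.28 (limma adjusted p = 0.505). Over both Sox11 cKO arrays the mean log2 signals were 5.32 in knockout and 4.83 in wild-type cells. The knockout mean includes replicate 2 (4.96), which was not well above background, so no lower bound on the fold is given.

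*Mmp14* encodes the membrane-type MMP that activates proMMP2 on the cell surface and cleaves fibrillar collagen there. It was well above background in all 12 channels, with wild-type log2 signals from 8.37 to 9.32 (median 8.57), the narrowest wild-type range among the 5 genes measured in every wild-type channel. The log2 ratios were 0.07 and 0.13 in Sox4 cKO, -0.59 and 0.44 in Sox11 cKO and -0.87 and -0.41 in dcKO cells. The fitted dcKO value was -0.64 ± 0.32 (SD, n = 2; 95% interval -1.08 to -0.20; limma adjusted p = 0.175). The dcKO arrays were both below 0, and 1 Sox11 cKO array lay between them. The differences of dcKO from Sox4 cKO and Sox11 cKO cells were -0.74 (95% interval -1.37 to -0.11) and -0.57 (-1.19 to 0.06), with limma adjusted p of 0.321 and 0.548.

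*Plau* itself, the urokinase gene, was well above background in all 12 channels. Its log2 ratios were 0.64 and -0.75 in Sox4 cKO, 0.29 and 0.66 in Sox11 cKO and 0.37 and -0.81 in dcKO cells. The arrays of Sox4 cKO and of dcKO cells disagreed in sign, and both Sox11 cKO arrays were above 0 (0.47 ± 0.26, SD, n = 2; limma adjusted p = 0.878). The fitted value for dcKO cells was -0.22 (95% interval -0.89 to 0.45), whereas that of its receptor gene was -1.36. No test of the difference between these probes was made.

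*Timp1*, a secreted inhibitor of most MMPs, was well above background in every channel and had log2 ratios of 0.66 and -0.15 in Sox4 cKO, 0.17 and 1.00 in Sox11 cKO and -0.28 and -0.15 in dcKO cells. In Sox11 cKO cells both arrays were above 0 (0.58 ± 0.59, SD, n = 2; limma adjusted p = 0.743). Its fitted dcKO value was -0.21 ± 0.09 (SD, n = 2; 95% interval -0.81 to 0.39; limma adjusted p = 0.844). *Timp3* encodes an inhibitor that is held in the matrix and also blocks ADAM proteases. Its log2 ratios were -2.09 and -0.62 in Sox4 cKO, 0.21 and -1.07 in Sox11 cKO and -0.64 and 3.73 in dcKO cells. The 3.73 of dcKO replicate 2 was the highest ratio of any of the 10 genes on any array, and the other dcKO array had the opposite sign, from a wild-type log2 signal of 5.56 and a knockout signal of 4.92 that was not well above background. In Sox4 cKO cells both arrays were below 0 (-1.36 ± 1.04, SD, n = 2; limma adjusted p = 0.765). The fitted dcKO value was 1.54 ± 3.09 (SD, n = 2; 95% interval -0.21 to 3.30; limma adjusted p = 0.469). Its difference from the Sox4 cKO value was 2.90 (0.42 to 5.38; limma adjusted p = 0.327) and from the Sox11 cKO value 1.97 (-0.51 to 4.45; adjusted p = 0.618).

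The wild-type signals of these genes, from cells without a deletion, also differed between the arrays. For *Timp3* the wild-type log2 signal was 12.71 and 12.97 on the Sox4 cKO arrays, 10.47 and 12.60 on the Sox11 cKO arrays, and 5.56 and 8.44 on the dcKO arrays. The wild-type cells hybridised with dcKO RNA thus had the lowest *Timp3* signals of the 6, and the knockout signal of dcKO replicate 2, 12.17, lay within the range of the other wild-type arrays. The wild-type signal of *Timp1* ran from 9.37 (Sox11 cKO replicate 2) to 12.96 (Sox11 cKO replicate 1) with a median of 11.78, and that of *Plaur* from 9.57 to 12.02 with a median of 11.40. For 9 of the 10 genes the wild-type range over the 6 arrays was wider than the largest ratio of knockout to wild type on any array, the exception being *Mmp9* (0.33 against 0.71). That share was not counted over all probes. A range between arrays also takes in array and dye differences, since wild-type RNA changed dye with the replicate number. The range of *Mmp13* rests on 1 wild-type channel well above background and that of *Mmp9* on none. Signals are compared here between arrays after quantile normalisation of the mean intensities, and no culture, batch or sex difference behind their spread was tested.

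Which arrays measured the 4 genes of the chromosome 9 run differed from gene to gene, with dcKO replicate 1 shared by all. On dcKO replicate 1 all 4 were well above background in wild-type and knockout cells, and on Sox11 cKO replicate 1 the same held for *Mmp3*, *Mmp10* and *Mmp1b*. On the Sox4 cKO arrays 3 of them were above background in no channel, and *Mmp1b* was measured in the knockout channels alone. The wild-type log2 signal of *Mmp3* was 9.24 on dcKO replicate 1, 7.48 on Sox11 cKO replicate 1 and 6.27 on dcKO replicate 2, and between 4.76 and 4.78 on the 3 others. The wild-type signal of *Mmp1b* was 8.83 on dcKO replicate 1, 7.54 on dcKO replicate 2 and 7.04 on Sox11 cKO replicate 1, and that of *Mmp10* 7.76 on dcKO replicate 1, 7.13 on Sox11 cKO replicate 2 and 6.12 on Sox11 cKO replicate 1. On Sox11 cKO replicate 2 *Mmp10* was the only one of the 4 above background in wild-type cells, and on dcKO replicate 2 *Mmp10* and *Mmp13* were at background there. A fall of these genes could be seen only on arrays whose wild-type cells expressed them, which for *Mmp3* were the dcKO arrays and 1 Sox11 cKO array.

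**Figure D2:**
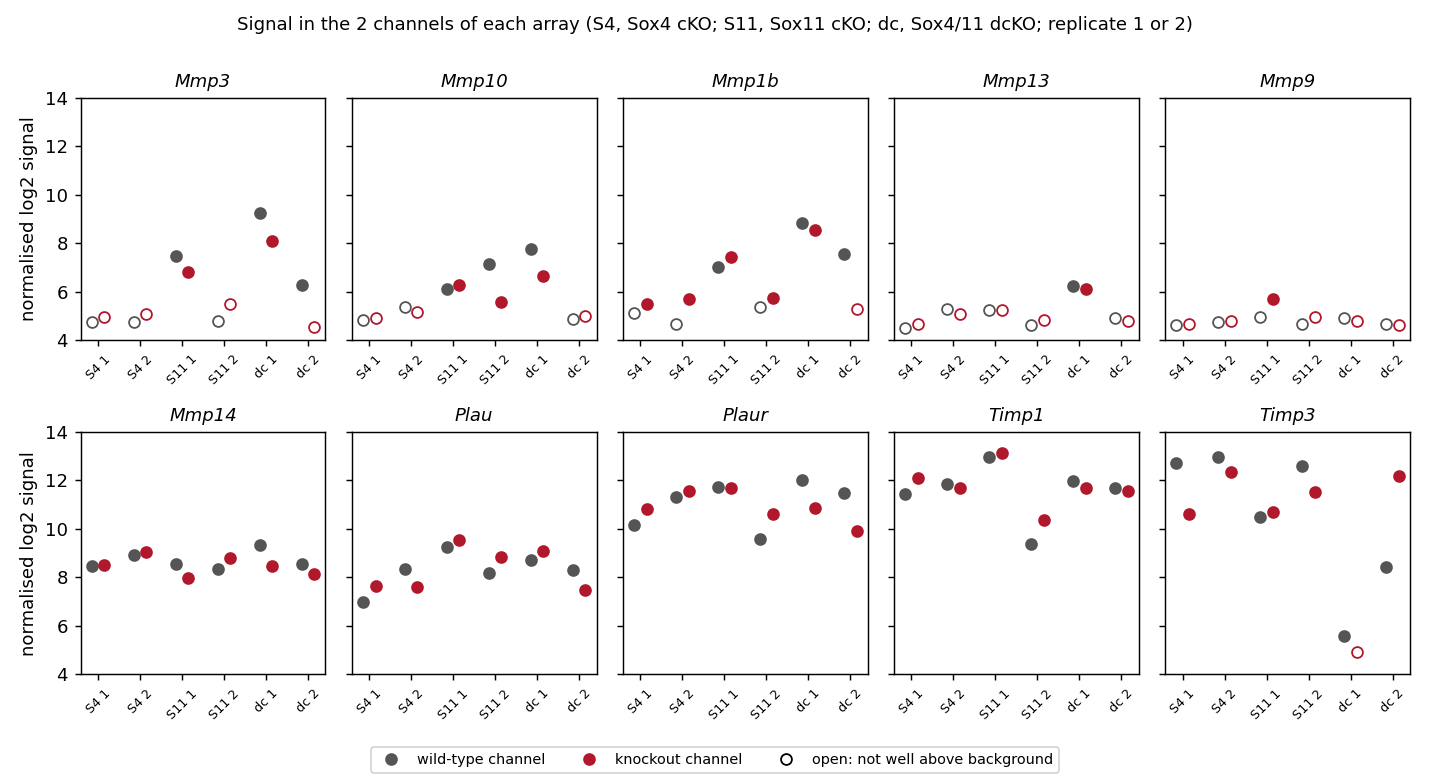
Normalised log2 signal (y axis) of each gene in the wild-type (grey) and knockout (red) channel of the 6 arrays (x axis), with open points where the probe was not well above background. *Mmp3*, *Mmp10*, *Mmp1b* and *Mmp13* have their highest wild-type and knockout signals on dcKO replicate 1, and among the wild-type points of *Timp3* those of the dcKO arrays are the lowest.

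**Figure D3:**
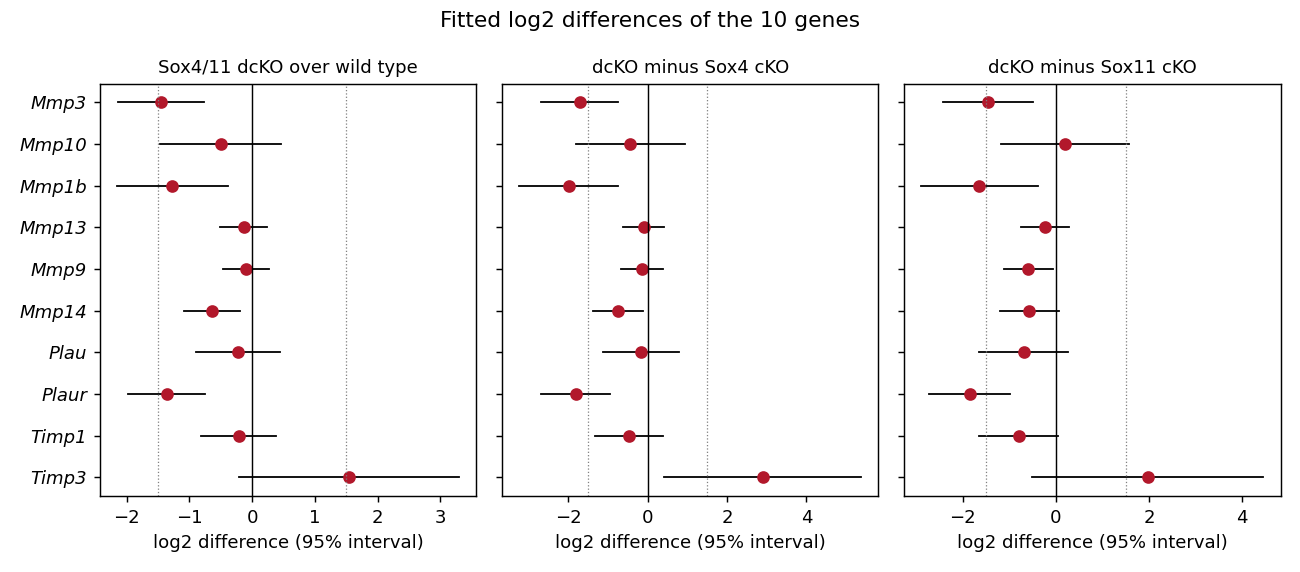
Fitted log2 differences (points) with 95% intervals (bars) for dcKO over wild type and for dcKO minus each single knockout, with dotted lines at the fold change required for a call. In dcKO over wild type the intervals of *Mmp3*, *Mmp1b*, *Mmp14* and *Plaur* lie below 0, before any adjustment for the number of probes.

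Other matrix metalloproteinases were mostly near background. Of 16 other *Mmp* genes with a probe, 8 were above background in no channel and 1, *Mmp11*, was above it in all 12. None was called in any genotype (limma), and the median dcKO value was -0.04. *Mmp11*, or stromelysin-3, had the smallest adjusted p of the list in dcKO cells and was lower on all 6 arrays, with ratios between -2.02 and -0.16 (dcKO -0.85, limma adjusted p = 0.331). Its second probe, which is dimmer, had ratios between -1.27 and -0.60 and a dcKO value of -0.93 (limma adjusted p = 0.04998), below the fold change required. The Sox4 cKO and Sox11 cKO values of that probe were similar, -0.93 and -0.78 (limma adjusted p = 0.183 and 0.266). *Mmp15*, a membrane-type MMP gene, was well above background in 4 wild-type and 0 knockout channels. In Sox11 cKO cells, with both wild-type channels measured, its log2 ratios were -0.41 and -1.73. The fitted value was -1.07 (limma adjusted p = 0.186). On the Sox4 cKO and the dcKO arrays only the wild-type channel of replicate 2 measured the gene. No bound on the fold of *Mmp15* is given for any genotype (limma adjusted p = 0.632 in Sox4 cKO and 0.524 in dcKO cells). *Mmp28* was above background in no channel. Among the other inhibitors, *Timp2* was measured in every channel (dcKO 0.34, limma adjusted p = 0.636), *Timp4* in the channels of dcKO replicate 2 alone, and *Reck* in none.

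Of the 10 genes of plasminogen activation and its control, 7 were well above background in all channels and 0 were called in any genotype (limma). The inhibitor gene *Serpinb2* (PAI-2) and the tissue activator gene *Plat* were among the 3 with the smallest adjusted p in dcKO cells. Their log2 ratios on the 2 dcKO arrays were 0.88 and 0.77 for *Serpinb2* and 0.44 and 1.38 for *Plat*. All of these ratios were above 0. In the single knockouts *Plat* was below 0 on all 4 arrays. The fitted values of 0.83 and 0.91 had limma adjusted p of 0.151 and 0.192. In the adamalysin list, 0 of 12 genes were called in any genotype. *Adamts4*, an aggrecanase gene, was measured in 0 of the 2 dcKO channels and in 1 of the 2 wild-type channels beside them. Its log2 ratios were -1.28 on dcKO replicate 1, where wild type was measured, and -0.22 on replicate 2, between background signals. No bound on the fold is given (limma adjusted p = 0.127). The fitted dcKO values of the sheddase gene *Adam10* and of *Adamts15* were 0.55 and 1.67 (limma adjusted p = 0.225 and 0.226).

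Among 7 AP-1 subunit genes, 1 was called in dcKO cells and 0 in the single knockouts (limma), with a list median of -0.13. *Fosl1*, which encodes the Fos family protein FRA-1, had log2 ratios of 0.88 and 1.60 in Sox4 cKO, -0.58 and 0.14 in Sox11 cKO and -1.91 and -1.53 in dcKO cells. It fell by 1.72 in dcKO cells (95% interval -2.07 to -1.37; limma adjusted p = 0.00345), and its Sox4 cKO value of 1.24 had an adjusted p of 0.0421 without reaching the fold change for a call; the p was 0.39 and 0.782 without Sox4 cKO replicate 1 or replicate 2 and 0.282 without the replicate block. The difference of dcKO from Sox4 cKO cells was -2.96 (limma adjusted p = 0.00533), and from Sox11 cKO cells -1.5, at the very edge of the fold required (adjusted p = 0.0398). The wild-type log2 signal of *Fosl1* was 7.95 and 8.37 on the Sox4 cKO arrays and 9.84 and 6.32 on the Sox11 cKO arrays. On the dcKO arrays it was 9.80 and 9.89, with knockout signals of 7.89 and 8.36. The part of the wild-type channels in these differences was not tested. Without dcKO replicate 1 or dcKO replicate 2 the dcKO call was lost (limma adjusted p = 0.0573 and 0.0918), and without Sox4 cKO replicate 1 or replicate 2 the difference from Sox4 cKO cells was lost (adjusted p = 0.0584 and 0.0581). With processed signals both were lost (adjusted p = 0.172 and 0.324), and with a normexp offset of 50 the second (0.0734). The difference from Sox11 cKO cells was lost under 10 of 15 alternatives, among them every fit with an array left out except that without Sox11 cKO replicate 1 (adjusted p between 0.0764 and 0.264), the fit without the replicate block (0.209) and that with a normexp offset of 50 (0.126). *Fos* (0.64, limma adjusted p = 0.384) and *Jun* (-0.51, adjusted p = 0.32) were not called.

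Of 14 genes for matrix substrates and their receptors, 1 was called lower in dcKO cells and 0 were called in the single knockouts (limma), with a dcKO median of -0.32. *Fn1*, which encodes fibronectin, a substrate of several MMPs and of plasmin, had log2 ratios of -3.54 and -4.40 in dcKO cells, -0.36 and -2.28 in Sox4 cKO and -1.39 and -1.03 in Sox11 cKO cells. It was lower on all 6 arrays and fell by 3.97 in dcKO cells (95% interval -4.74 to -3.20; limma adjusted p = 0.00286). The knockout channel of dcKO replicate 1 was not well above background, and the value moved with the treatment of low signals, to -3.41 with a normexp offset of 50 and to -5.52 with processed signals. The call was lost in both of those fits (adjusted p = 0.0721 and 0.21) and without dcKO replicate 1 or replicate 2 (adjusted p = 0.0875 and 0.088). Fibronectin is also made by fibroblasts, whose other markers on the dcKO arrays were given above. *Itgb6*, which encodes the β6 subunit of an epithelial fibronectin receptor, was higher on both dcKO arrays (1.86 and 1.02), with a fitted value of 1.44 and a limma adjusted p of 0.0361 that came with a fold change just under the one required; its second probe gave 0.89 (adjusted p = 0.0641). Without dcKO replicate 1 it was 0.76 (limma adjusted p = 0.337), and without dcKO replicate 2 it was 2.13 (adjusted p = 0.0444). *Itga2*, the α subunit of a collagen receptor, was lower on both dcKO arrays (-0.84 and -1.71; limma adjusted p = 0.0836) and higher on both Sox4 cKO arrays (1.32 and 1.26). The difference of *Itga2* between dcKO and Sox4 cKO cells was -2.56 (limma adjusted p = 0.0497). This call was lost under 10 of 15 alternatives. Among them were the fit without the replicate block (limma adjusted p = 0.0755) and those without any 1 of the Sox4 cKO or dcKO arrays. The wild-type channel of Sox4 cKO replicate 1 (log2 signal 4.96) and the knockout channel of dcKO replicate 2 (5.38) were not well above background. With a normexp offset of 50 the difference was -1.73, and with processed signals -4.33.

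**Figure D4:**
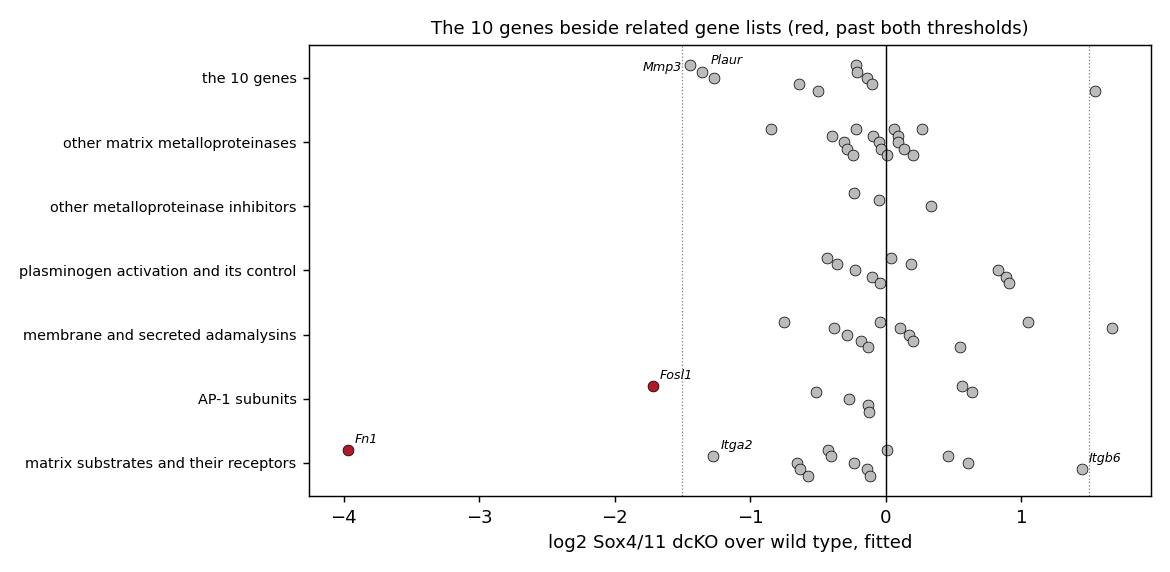
Fitted log2 fold change in dcKO over wild type (x axis) of the 10 genes and of the genes of 6 related lists (rows), each gene by its brightest probe, with dotted lines at the fold change required for a call. *Fosl1* and *Fn1* (red) are past both thresholds, and *Mmp3* and *Plaur* stand just inside the dotted line on the left.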

How the data were processed

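RNA was hybridised to 6 Agilent 2-colour arrays. The deposited files hold median spot and background intensity values, read out by the authors in Feature Extraction 11.0.1.1 per the file headers and not normalised. The same files hold intensity values processed by that program and log10 ratios of red over green made from them by the authors, of which the first served as an alternative. Here intensities were corrected by normexp (offset 16) and normalised by loess within arrays, as the methods of the study state, in limma 3.58.1 and R 4.3.3; 3671 control spots were left out after normexp, outlier spots (194 to 288 an array) were left out, no spot was saturated, and spots of a probe were averaged. Ratios are log2 knockout over wild type. The deposited table of log2 ratios, normalised by the authors, was an alternative; its direction was knockout over wild type (correlation with the scanner ratios 0.89 to 0.95), its column medians were between -0.0066 and 0.0045, and how it was centred stays unknown.

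Probes were named through RefSeq accessions (28331 of 29786 matched). A gene was taken by its brightest probe. Of the probes, 35.1% to 45.0% were well above background in a channel (over 50% of a probe's spots). The lowest share was that of the knockout channel of dcKO replicate 1, beside 41.0% in its wild-type channel. The number of arrays limits the precision. One limma model over all 6 arrays had a term per genotype and a dye term, with 2 residual and 5.37 prior degrees of freedom. The dye followed the replicate number, so that the dye term is also the block on it; deviations of arrays with the same number correlated at 0.316, 0.244 and 0.125 across probes, and pairing and dye cannot be told apart. Levels in 1 channel used quantile normalisation of mean intensities between arrays (Aquantile). All arrays lay on 1 slide. The fit was tested on simulated data. Named genes were the 10 genes, *Sox4* and *Sox11*, and from each related list any called gene and the 3 smallest adjusted p in dcKO; *Vim* among the markers was named as a called gene, and *Mmp1a* was chosen as a paralog. Members and lists were chosen with earlier results of these data known. Alternatives are in the closing section. Of the genes that this rule names, 1 is not reported here.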

Additional observations from a re-analysis of the deposited data

Results flagged for a closer look

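The wild-type log2 signal of *Mmp11* was 9.96 on Sox4 cKO replicate 2 and between 7.92 and 8.31 on the other 5 arrays, a gap of 0.807 of the whole range. Of 28 genes tested for such a gap over the 6 wild-type channels this was the 1 that passed, and chance gives about 1 in 20.

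*Fosl1* differed between genotypes by the test of the difference itself, by -2.96 (dcKO minus Sox4 cKO; limma adjusted p = 0.00533) and -1.5 (dcKO minus Sox11 cKO; adjusted p = 0.0398). *Itga2* differed by -2.56 (dcKO minus Sox4 cKO; limma adjusted p = 0.0497). The second of the *Fosl1* differences and that of *Itga2* were each lost under 10 of 15 alternatives. The wild-type signals behind the *Fosl1* differences varied between arrays, as given above. The targeted genes differed as the labels give: *Sox4* by -2.38 (dcKO minus Sox11 cKO; limma adjusted p = 0.0129) and *Sox11* by -3.36 (dcKO minus Sox4 cKO; adjusted p = 0.0407).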

How the results depend on the processing

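The 6 counts of the 10 genes called, all 0 in the reported fit, were recomputed under 15 alternatives each. The counts for Sox4 cKO over wild type and for Sox4 cKO minus Sox11 cKO were 0 under every one. With median centring the counts were 3 in dcKO over wild type, 3 in dcKO minus Sox4 cKO and 2 in dcKO minus Sox11 cKO. With the authors' table of values they were 1 in dcKO minus Sox4 cKO and 1 in dcKO minus Sox11 cKO (*Plaur* in both). With only the arrays compared, 4 were called in dcKO minus Sox4 cKO. Leaving out single arrays gave 0 to 1 called in dcKO over wild type and in Sox11 cKO over wild type, 0 to 4 in dcKO minus Sox4 cKO and 0 to 4 in dcKO minus Sox11 cKO; the arrays that raised a count were those of Sox11 cKO. Without the replicate block (the dye term) all 6 counts stayed at 0, and the fit that subtracted the dye effect first gave 0 as well. A lone array is assumed to vary like the others. Leaving out either array of a genotype gives the same result for the other genotypes, but is counted as separate alternatives. For dcKO minus Sox4 cKO the fit with only the arrays compared is also the same as those without a Sox11 cKO array. In dcKO over wild type the adjusted p was below 0.05 under 5 of 15 alternatives for *Plaur* (range 0.000631 to 0.533) and 5 of 15 for *Mmp3* (0.000869 to 0.592), with values between -1.89 and -1.0 and between -2.56 and -0.79; the cause was not tested.

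Direction was followed where both arrays of a genotype shared a sign. It turned with Feature Extraction's processed signals for *Mmp3* in Sox4 cKO (-0.097) and for *Mmp9* in Sox4 cKO (-0.060) and dcKO (0.0091), and with median centring for *Mmp9* in Sox4 cKO (-0.028) and dcKO (0.16). Leaving out single arrays turned it for *Mmp9* (Sox4 cKO -0.060 to 0.13, dcKO -0.24 to 0.044), *Mmp14* (Sox4 cKO -0.24 to 0.44), *Mmp1b* (Sox4 cKO -0.11 to 1.55), *Mmp13* (Sox11 cKO -0.086 to 0.28), *Plau* (Sox11 cKO -0.35 to 1.30) and *Timp1* (Sox11 cKO -0.0027 to 1.17). *Mmp9* and *Mmp13* have no value with dim probes left out. A fit on mean spot signals was not run, because the files used here hold medians, and the slide as a block was not run, because all arrays share 1 slide. Genes near background (*Mmp9*, *Mmp13*, and *Mmp3* and *Mmp10* on several arrays) could show a change only where a channel measured them.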
